A study of Mus musculus with 9 samples.

Results

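The vascular endothelial growth factor (VEGF) and angiopoietin genes were followed through the nuclei of the mouse heart after ischemia-reperfusion (I/R). They are 10 of the 32285 genes counted, chosen for their place in the pathway: the ligand genes Vegfa, Pgf, Angpt1 and Angpt2, and the receptor genes Flt1, Kdr, Flt4, Nrp1, Tek and Tie1. All 10 were found in the count files. They were measured by single-nucleus RNA sequencing of flash-frozen, powdered hearts of male wild-type (WT) mice aged 9 to 10 weeks. Myocardial I/R was made by occluding the left anterior descending artery for 45 min and reperfusing for 24 h. Sham animals had a thoracotomy alone. All animals received 2 intraperitoneal injections, the first 1 h before occlusion, either of enpatoran (Enpa), which blocks the RNA-sensing receptor TLR7, at 5 mg/kg each, or of normal saline (NS). The second injection is given at different times in different labels. There were 3 libraries in each of the groups NS-Sham (sham, saline), NS-I/R (I/R, saline) and Enpa-I/R (I/R, enpatoran), and no sham group received enpatoran. Each ± below is the SD over 3 libraries (n = 3).

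VEGF-A binds the endothelial receptor tyrosine kinases encoded by Kdr, which carries most of its mitogenic and permeability signal, and Flt1, which binds it tightly with weak kinase activity. Placental growth factor, from Pgf, binds the Flt1 receptor and not the Kdr receptor, Flt4 encodes the receptor of VEGF-C and VEGF-D that marks lymphatic endothelium, and Nrp1 encodes a co-receptor for VEGF and class-3 semaphorins. Angiopoietin-1 activates the receptor encoded by Tek and helps keep vessels quiescent, angiopoietin-2 is a context-dependent antagonist or weak agonist of the same receptor, and Tie1 encodes its co-receptor. In the healthy heart, cardiomyocytes are a well-known source of VEGF-A and mural and other perivascular cells are known sources of angiopoietin-1.

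After filtering, 42192 nuclei remained of 56766 barcodes, between 3171 and 6477 per library. Library totals ran from 19.7 to 38.97 M unique molecular identifiers (UMIs, each a counted RNA molecule), and any pair of libraries shared 5 to 20 barcodes. The nuclei formed 26 clusters, named from marker genes that included none of the 10. Classes are written as "cardiomyocyte-like" and so on for that reason. Differences between libraries bear on the results. In I/R, other clusters than in sham held most of several classes. Cardiomyocyte cluster 1 held 2392, 276 and 1171 nuclei in NS-Sham, with NS-I/R and with Enpa-I/R, against 1, 1510 and 626 in cardiomyocyte cluster 20. Fibroblast cluster 6 held 1955, 163 and 564, capillary cluster 2 held 2721, 463 and 1130, and endothelial cluster 7, which met no subtype's markers, held 119, 1597 and 816. NS-I/R replicate 3 kept more of the sham-type nuclei than its 2 companions: 197 nuclei of cardiomyocyte cluster 1 against 23 and 56, and 137 of fibroblast cluster 6 against 11 and 15. Macrophage cluster 14 held 44, 734 and 427 nuclei and macrophage cluster 8 held 786, 684 and 710. Calls of the 10 genes that change without NS-I/R replicate 3 are given with both values after the counts over all 10. Cluster 24, led by Tnc and Adam12, stayed unnamed with 4, 1382 and 650 nuclei, as did cluster 25 with 2, 419 and 12. Cluster 24 showed 9 of 10 fibroblast markers. It was left unnamed because its leading genes held 0 of them and 1 marker of another class.

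CPM (counts scaled to the class total of 1 library and given per 1 M UMIs) is the level used. UMIs come from the 3′ ends of transcripts and were not scaled by length, so levels are compared between classes and groups within a gene and not between genes. Fold changes, their standard errors (SE) and p-values are from edgeR's quasi-likelihood test on UMI counts summed per library and class, with Benjamini-Hochberg adjustment over all genes tested in the class. A gene is called where the adjusted p is under 0.05. The contrast for I/R is NS-I/R minus NS-Sham, and that for enpatoran is Enpa-I/R minus NS-I/R. Both use the same NS-I/R libraries, so that a high or low NS-I/R library moves them in opposite directions.

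**Figure D1:**
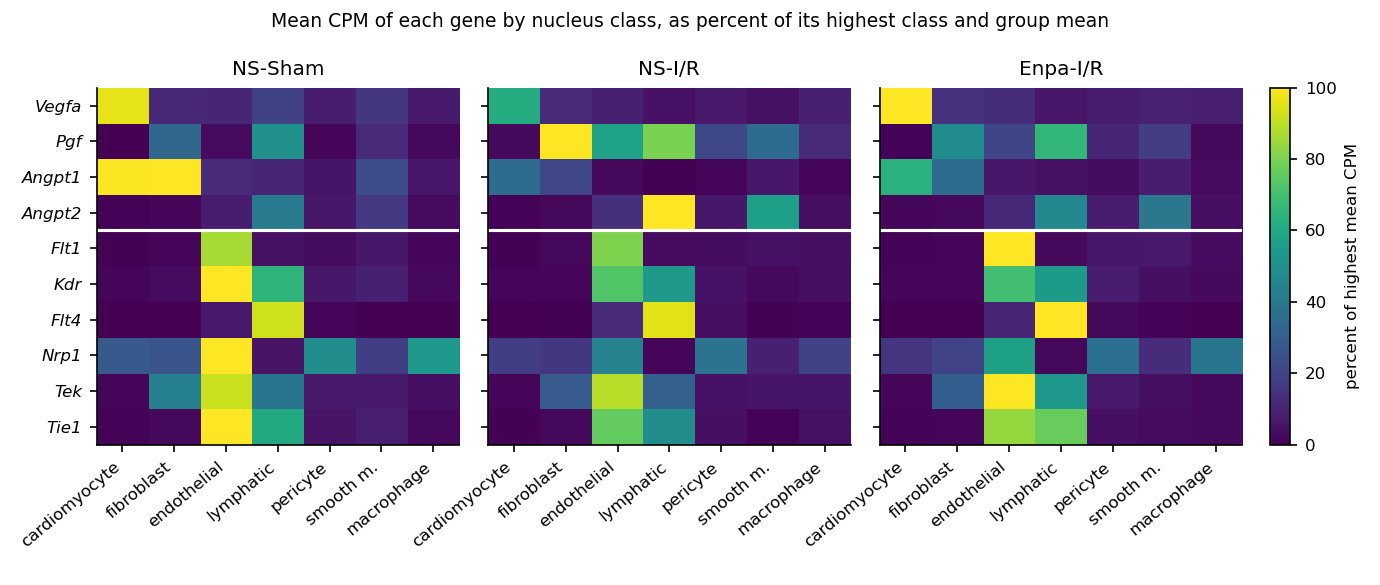
Mean CPM of the 10 genes by marker-defined class (columns) and group, each as a percent of the gene's highest class and group mean; brighter cells are higher. Among the 7 classes plotted, Vegfa is highest in cardiomyocyte-like nuclei, Angpt1 in cardiomyocyte-like and fibroblast-like nuclei of the sham group, and Flt4 in lymphatic endothelial-like nuclei, while Kdr, Flt1 and Tie1 peak in endothelial-like nuclei. Classes with fewer nuclei, such as the 8 adipocyte-like nuclei of NS-Sham, are not plotted.

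Of the 4 ligands, Vegfa was mostly a cardiomyocyte transcript. Cardiomyocyte-like nuclei held 91.2% ± 1.80 of all Vegfa UMIs in NS-Sham, 76.3% ± 1.03 with NS-I/R and 88.5% ± 2.12 with Enpa-I/R. Pooled over libraries, a cardiomyocyte-like nucleus carried 7.87 Vegfa UMIs in NS-Sham, 5.12 with NS-I/R and 8.59 with Enpa-I/R, against 0.349 in a sham fibroblast-like nucleus and 0.202 in a sham endothelial-like nucleus. In sham the next class in mean level after cardiomyocyte-like nuclei, among classes large enough to test, was lymphatic endothelial-like at 110, 140 and 226 CPM, and smooth muscle-like nuclei at 170, 57.5 and 159 CPM overlapped it.

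Cardiomyocyte-like Vegfa stood at 781, 771 and 771 CPM in the 3 NS-Sham libraries, at 387, 264 and 840 with NS-I/R and at 850, 727 and 836 with Enpa-I/R. Replicates 1 and 2 of NS-I/R lay below every other library, and replicate 3 lay among the sham and enpatoran libraries, so the groups overlapped. The log2 fold change was −0.66 (SE 0.32, adjusted p = 0.121) in I/R and 0.75 (SE 0.32, adjusted p = 0.123) with enpatoran, and neither passed the test. Without NS-I/R replicate 3, both passed: −1.24 (SE 0.17, adjusted p = 0.000102) and 1.33 (SE 0.17, adjusted p = 0.000132). The same library stood high inside single cardiomyocyte clusters, not only in the class: in cluster 1 the NS-I/R values were 333, 310 and 903 CPM and in cluster 19 they were 381, 318 and 936. The NS-Sham libraries of cluster 1 gave 779, 767 and 785. After thinning every nucleus to 1000 UMIs, the share of cardiomyocyte-like nuclei with a Vegfa UMI was 53.9% ± 1.27, 32.7% ± 14.1 and 52.4% ± 2.09 in the 3 groups. The unthinned shares were 93.2%, 79.9% and 91.5%, and B lymphocyte-like nuclei, which should lack the transcript, gave thinned shares of 6.99% ± 3.23 in NS-Sham and 2.02% ± 3.5 with NS-I/R.

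Vegfa was called in 2 of the smaller classes. Lymphatic endothelial-like nuclei gave 110, 140 and 226 CPM in NS-Sham and 42.5, 23.3 and 48.0 with NS-I/R (log2 −2.15, SE 0.37, adjusted p = 0.000529). The groups did not overlap. Smooth muscle-like nuclei fell from 170, 57.5 and 159 to 24.0, 24.9 and 59.9 CPM, with −1.89 (SE 0.44, adjusted p = 0.0144). That call was lost without NS-Sham replicate 1 or 3 or without NS-I/R replicate 1 or 2, with adjusted p between 0.0504 and 0.0837, and with doublets kept. Summed cardiomyocyte markers moved with both falls. The 10 markers came to 5639 to 16551 CPM in sham lymphatic endothelial-like nuclei and 1561 to 2265 with NS-I/R, and to 11166 to 17286 against 3185 to 5506 in smooth muscle-like nuclei, with no marker at 0, and their part in these falls was not tested. Unnamed cluster 24, which had 4 nuclei in sham, gave 357, 210 and 665 CPM with NS-I/R and held 11.5% ± 3.06 of all Vegfa UMIs there, against 0.0095% in NS-Sham.

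**Figure D2:**
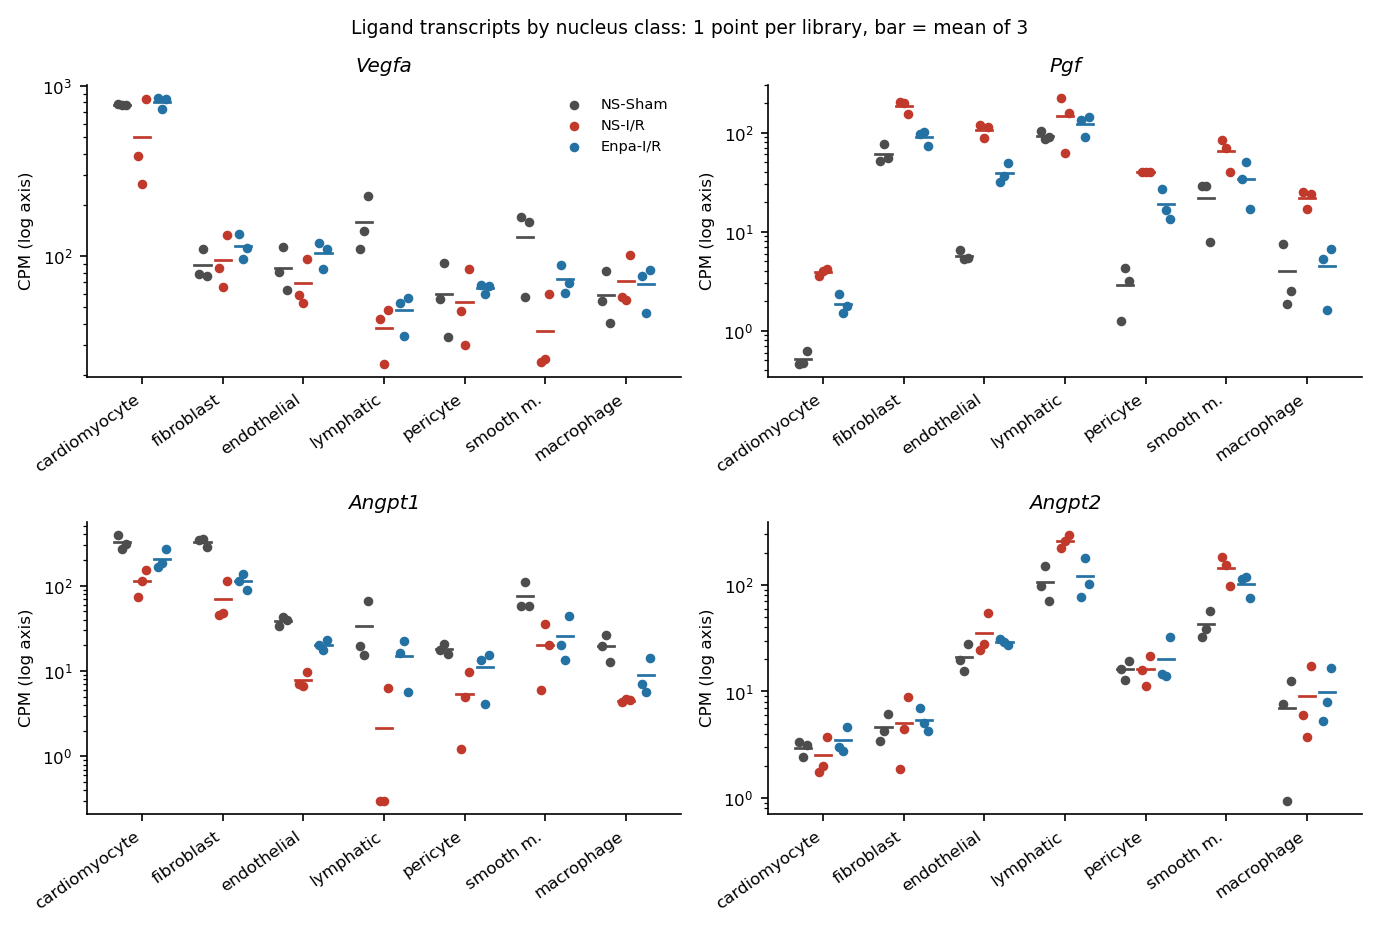
CPM of the 4 ligand genes (log axis) in each library, by class and group; points are libraries and bars are group means, and values of 0 are drawn at 0.3 CPM. Pgf with NS-I/R lies above NS-Sham in all 3 libraries of endothelial-like, fibroblast-like, pericyte-like, cardiomyocyte-like and macrophage-like nuclei, and Angpt1 lies below.

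Pgf rose in I/R in 5 of the 7 classes where it was tested, and its change in endothelial-like nuclei was the largest log2 fold change of any of the 10 genes in a class. The sequence of its promoter is shown beside that of Nrp1 because the 2 genes moved in opposite directions in the same nuclei. The stretches are the 250 bases before the transcription start from RefSeq (GRCm38.p6), at chr12:85177314-85177563 on the minus strand for Pgf (1 of its starts) and chr8:128358823-128359072 on the plus strand for Nrp1. Capitals mark matches to GGGNNNNNCC or its reverse GGNNNNNCCC, a loose NF-kB-type motif searched on both strands; overlapping matches are joined.
Pgf: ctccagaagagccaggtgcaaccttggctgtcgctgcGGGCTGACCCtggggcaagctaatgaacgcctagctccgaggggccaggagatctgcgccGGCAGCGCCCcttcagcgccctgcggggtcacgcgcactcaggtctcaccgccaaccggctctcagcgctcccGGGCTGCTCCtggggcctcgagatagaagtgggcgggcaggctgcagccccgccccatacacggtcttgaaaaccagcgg
Nrp1: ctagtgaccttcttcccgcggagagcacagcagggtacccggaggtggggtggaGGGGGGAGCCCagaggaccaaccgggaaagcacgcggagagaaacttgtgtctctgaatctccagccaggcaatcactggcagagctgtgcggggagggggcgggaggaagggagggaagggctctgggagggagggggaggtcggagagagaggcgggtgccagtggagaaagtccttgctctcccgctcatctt
The Pgf stretch held 3 matches and the Nrp1 stretch held 2, while the stretch before the other Pgf start held 0. The motif is common: 45.8% of 32851 promoter stretches of the same length held it. The AP-1 motif TGANTCA was in none of the 10 stretches found for 8 of the genes and in 6.75% of all stretches. The hypoxia response core ACGTG, also searched on the other strand, was in 1 of 2 Vegfa stretches and in 16.6% of all. A match is a run of letters and not a binding site.

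In endothelial-like nuclei Pgf stood at 6.52, 5.29 and 5.37 CPM in NS-Sham, at 119, 87.8 and 114 with NS-I/R and at 31.3, 36.4 and 49.2 with Enpa-I/R. The 3 groups did not overlap. The I/R log2 fold change was 4.15 (SE 0.23, adjusted p = 4.41e-07), 17.7-fold, and enpatoran lowered it by 2.67-fold (log2 −1.42, SE 0.18, adjusted p = 0.00263). Both calls, for the class as a whole, passed under every alternative and with each library left out. Thinned to 1000 UMIs, 0.600% ± 0.208 of endothelial-like nuclei held a Pgf UMI in NS-Sham, 8.42% ± 1.41 with NS-I/R and 3.07% ± 0.359 with Enpa-I/R, and the unthinned shares were 1.04%, 12.2% and 4.99%. Exact two-sided permutation p was 0.1 for both contrasts, the smallest that 3 against 3 allows.

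The endothelial rise had a centre in cluster 7, although the 10 genes were kept out of clustering. Cluster 7 gave 285, 183 and 358 CPM with NS-I/R and 168, 188 and 261 with Enpa-I/R, and its 3 sham libraries held 1, 2 and 1 Pgf UMIs. In a fit of its I/R libraries alone, added after the data were seen, the enpatoran difference was −0.40 on the log2 scale (SE 0.24, adjusted p = 0.466). Cluster 7 held 1597 nuclei with NS-I/R and 816 with Enpa-I/R. The part of that shift in the fall of the whole class was not tested. Arterial-like cluster 4 rose from 8.68, 1.76 and 6.2 CPM to 57.4, 61.4 and 37.3 (log2 3.28, SE 0.51, adjusted p = 0.000290). It gave 11.1, 4.58 and 18.2 CPM with enpatoran, a fall of 2.17 on the log2 scale (SE 0.38, adjusted p = 0.00700). That fall was not called without NS-I/R replicate 2 or Enpa-I/R replicate 1 or 2 (adjusted p 0.0501 to 0.0569), with a mitochondrial limit of 20% or with doublets kept. Capillary-like cluster 2 moved from 5.51, 6.30 and 5.68 to 14.6, 43.3 and 19.2 CPM (log2 1.94, SE 0.50, adjusted p = 0.0156), and the call was lost without NS-I/R replicate 2 (adjusted p = 0.142).

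Fibroblast-like nuclei were the main holders of Pgf in sham, with 76.5% ± 6.36 of its UMIs. They stood at 51.6, 76.2 and 55.0 CPM in NS-Sham, 204, 197 and 154 with NS-I/R and 95.8, 100 and 73.8 with Enpa-I/R. The rise was 2.75-fold (log2 1.46, SE 0.18, adjusted p = 0.00014). The fall with enpatoran was 2.01-fold (log2 −1.01, SE 0.17, adjusted p = 0.0260). It was not called with any 1 Enpa-I/R replicate left out, nor without NS-I/R replicate 1 or 2 or NS-Sham replicate 3 (adjusted p 0.0530 to 0.153), or with the 6 libraries of the contrast. After I/R the fibroblast share of Pgf UMIs was 30.1% ± 2.93, with 22.2% ± 4.13 in endothelial-like nuclei, 26.5% ± 7.69 in cluster 24 and 6.93% in neutrophil-like nuclei. With enpatoran the shares were 46.7% ± 5.10, 25.1% ± 5.53, 8.43% ± 2.74 and 1.62%. Neutrophil-like nuclei also held endothelial markers with NS-I/R, given with Flt1 below, and the part of endothelial RNA in their Pgf share was not tested. Cluster 24 itself gave 280, 272 and 95.4 CPM with NS-I/R and 22.7, 40.8 and 41.3 with Enpa-I/R. It showed 9 of 10 fibroblast markers and is not counted in the fibroblast share, so the drop of that share depends on leaving it unnamed.

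Pericyte-like nuclei gave the closest-set NS-I/R values, 40.2, 40 and 40.1 CPM, against 1.25, 4.31 and 3.19 in NS-Sham (log2 3.43, SE 0.41, adjusted p = 1.96e-05). Enpa-I/R stood at 27.0, 16.6 and 13.3 CPM and was not called with all 9 libraries. Macrophage-like nuclei rose from 7.54, 1.87 and 2.53 to 24.9, 16.9 and 24.2 CPM (log2 2.43, SE 0.54, adjusted p = 0.00290). They stood at 5.31, 1.60 and 6.59 with enpatoran (log2 −2.32, SE 0.48, adjusted p = 0.0113), a fall that was not called without NS-I/R replicate 1 or Enpa-I/R replicate 2 (adjusted p 0.0534 and 0.0666). Cardiomyocyte-like nuclei were at the lowest levels, 0.462, 0.474 and 0.627 CPM in NS-Sham and 3.54, 3.96 and 4.18 with NS-I/R (log2 2.89, SE 0.31, adjusted p = 9.62e-05). Their Enpa-I/R values of 2.33, 1.49 and 1.77 CPM were called lower (log2 −0.99, SE 0.26, adjusted p = 0.0301), but not with any of NS-I/R replicates 1 and 2 and Enpa-I/R replicates 1, 2 and 3 left out (adjusted p 0.0666 to 0.103), with the 6 libraries of the contrast, with a mitochondrial limit of 20%, with no low-count filter or with doublets kept. Lymphatic endothelial-like nuclei had the highest mean level of the tested classes in sham, at 104, 85.4 and 89.3 CPM, and stood at 224, 62.1 and 157 with NS-I/R, overlapping sham and not called. In macrophage-like nuclei the summed endothelial markers, given with Flt1 below, were also higher with NS-I/R, and their part in the Pgf rise was not tested. Nor was the part of RNA from other nuclei in the pericyte-like and cardiomyocyte-like rises.

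**Figure D3:**
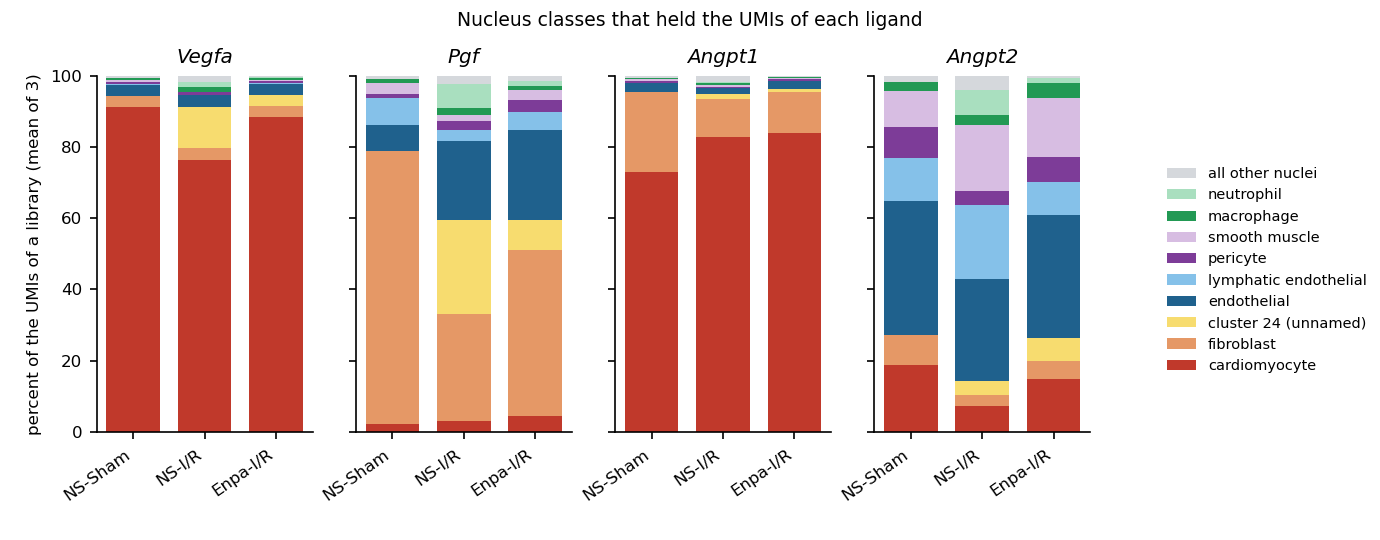
Share of each ligand's UMIs (percent of UMIs over all nuclei, mean of 3 libraries) held by each class, by group. The fibroblast-like part of Pgf, drawn without unnamed cluster 24, narrows from 76.5% in NS-Sham to 30.1% with NS-I/R. Cluster 24 showed 9 of 10 fibroblast markers and had 4 nuclei in NS-Sham and 1382 with NS-I/R, so the narrowing depends on leaving it unnamed. The cardiomyocyte-like part of Angpt1 stays at 73.1% to 84.0% in the 3 groups.

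Angpt1 was a transcript of cardiomyocyte-like and fibroblast-like nuclei. It fell in I/R in 6 of 6 classes tested, and in lymphatic endothelial-like nuclei it was too low to test. Cardiomyocyte-like nuclei held 73.1% ± 5.54 of its UMIs in NS-Sham, 82.7% ± 3.34 with NS-I/R and 84.0% ± 5.36 with Enpa-I/R. These shares depend on UMIs per nucleus and numbers of nuclei. Median UMIs in NS-Sham libraries were 6413 to 9731 in cardiomyocyte-like and 2647 to 3388 in fibroblast-like nuclei. In CPM, sham Angpt1 overlapped between these classes. A sham cardiomyocyte-like nucleus carried 3.15 Angpt1 UMIs and a sham fibroblast-like nucleus 1.22, against 0.0863 in an endothelial-like and 0.0504 in a pericyte-like nucleus.

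Fibroblast-like Angpt1 stood at 343, 350 and 281 CPM in NS-Sham and at 45.1, 47.6 and 115 with NS-I/R, a 5.10-fold fall (log2 −2.35, SE 0.29, adjusted p = 0.000169). Enpa-I/R gave 113, 139 and 90.3 CPM, overlapping NS-I/R replicate 3, and was not called with 9 libraries. Without NS-I/R replicate 3 the difference was 1.33 on the log2 scale (SE 0.17, adjusted p = 6.2e-05). Cardiomyocyte-like Angpt1 fell from 393, 269 and 305 to 73.3, 114 and 154 CPM (log2 −1.52, SE 0.27, adjusted p = 0.00146), and stood at 166, 185 and 269 with enpatoran. That rise of 0.92 on the log2 scale (SE 0.27, adjusted p = 0.0388) was lost with any single library other than NS-I/R replicate 3 left out, with adjusted p between 0.0517 and 0.130, and with the 6 libraries of the contrast or a mitochondrial limit of 20%. The nuclei also lay in other clusters than in sham, and the part of that shift in the fall was not tested. Within cardiomyocyte cluster 1 the values were 409, 271 and 315 CPM in NS-Sham and 275, 215 and 344 with NS-I/R. Cluster 20, which held 1 sham nucleus, gave 36.7, 63.1 and 22.8 CPM with NS-I/R and 36.0, 17.1 and 26.0 with Enpa-I/R.

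In endothelial-like nuclei Angpt1 fell from 33.8, 42.7 and 39.4 to 7.12, 6.70 and 9.74 CPM (log2 −2.38, SE 0.20, adjusted p = 5.89e-06) and stood at 20.0, 17.5 and 23.2 with enpatoran (log2 1.4, SE 0.21, adjusted p = 0.00491). Neither call was lost in any alternative or with any library left out. Endocardial-like nuclei were the highest endothelial subtype in sham at 84.4, 70.6 and 124 CPM and gave 19.6, 14 and 12.0 with NS-I/R (log2 −2.68, SE 0.34, adjusted p = 0.000129). Arterial-like nuclei fell from 49.9, 135 and 49.6 to 4.99, 9.56 and 8.28 CPM (log2 −3.44, SE 0.45, adjusted p = 5.78e-05). Macrophage-like nuclei (log2 −2.23, adjusted p = 0.00161), pericyte-like nuclei (log2 −1.89, adjusted p = 0.0157) and smooth muscle-like nuclei (log2 −1.92, adjusted p = 0.0265) also fell. The pericyte call was lost without NS-Sham replicate 2 or NS-I/R replicate 1 or 2 (adjusted p 0.0509 to 0.0862) or with a minimum of 1000 genes, and the smooth muscle call without NS-Sham replicate 2 or NS-I/R replicate 1 (adjusted p 0.0824 and 0.126) or with doublets kept. The 10 cardiomyocyte markers summed to 5645 to 6023 CPM in sham endothelial-like nuclei, 2739 to 3029 with NS-I/R and 3509 to 4868 with Enpa-I/R, moving the same way as Angpt1 in this class. They did so in macrophage-like nuclei too (4549 to 5232, 2164 to 2371 and 2177 to 3562), with no marker at 0, and their part in the Angpt1 changes was not tested. Angpt1 also overlaps an antisense gene, and the counting of reads there is not given in the sources used here.

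Angpt2 was highest in vascular cells among the classes tested. In sham, lymphatic endothelial-like nuclei stood highest at 97.4, 151 and 71.4 CPM, ahead of smooth muscle-like nuclei at 32.6, 38.3 and 57.2 and endothelial-like nuclei at 20.0, 15.5 and 27.7. After I/R, smooth muscle-like nuclei gave 183, 156 and 96.9 CPM with no overlap (log2 1.65, SE 0.31, adjusted p = 0.00401), and lymphatic endothelial-like nuclei gave 220, 256 and 294 (log2 1.11, SE 0.31, adjusted p = 0.0171). The lymphatic call was lost without NS-Sham replicate 1 or 3 (adjusted p 0.0597 and 0.0902). With enpatoran the lymphatic values were 77.3, 181 and 103 CPM, and neither class was called. Endothelial-like nuclei stood at 24.6, 27.8 and 54.6 with NS-I/R and did not pass (log2 0.72, adjusted p = 0.0704). Among their clusters, capillary-like nuclei gave 26.0, 21.9 and 26.8 CPM in NS-Sham and 4.86, 6.19 and 21.6 with NS-I/R, while cluster 7 gave 63.1, 69.2 and 163 with NS-I/R. Angpt2 lies inside the gene Mcph1 on the other strand, so its counts are uncertain.

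Of the receptors, Flt1 and Kdr encode the main VEGF receptors of endothelium. Flt1 stood at 2063, 2417 and 1975 CPM in NS-Sham endothelial-like nuclei, at 2072, 1855 and 2067 with NS-I/R and at 2327, 2566 and 2546 with Enpa-I/R. Neither contrast was called: the I/R log2 fold change was −0.19 with a 95% interval of −0.41 to 0.03. Enpa-I/R lay above NS-I/R in all 3 libraries, at 0.35 (SE 0.11, adjusted p = 0.0705), and without NS-I/R replicate 3 that difference passed at 0.38 (adjusted p = 0.0206). In macrophage-like nuclei Flt1 rose from 30.2, 43.0 and 17.7 to 73.9, 61.8 and 147 CPM (log2 1.47, SE 0.34, adjusted p = 0.00399), a call lost with a mitochondrial limit of 20% (adjusted p = 0.0525). The 11 endothelial markers in the same nuclei went from 318 to 352 to 501 to 1119 CPM, and their part was not tested. In neutrophil-like nuclei Flt1 reached 831, 587 and 1075 CPM with NS-I/R, where those markers summed to 4535 to 8229 CPM.

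Kdr stood at 396, 391 and 532 CPM in sham endothelial-like nuclei, 332, 353 and 278 with NS-I/R and 298, 350 and 272 with Enpa-I/R. The fall in I/R was 1.45-fold (log2 −0.53, SE 0.15, adjusted p = 0.0140), and it was not called without NS-Sham replicate 3 (log2 −0.38, adjusted p = 0.0691). The subtypes were fitted apart. Capillary-like nuclei fell from 563, 542 and 743 to 340, 390 and 403 CPM (log2 −0.71, SE 0.17, adjusted p = 0.00782), a call lost without NS-Sham replicate 3 or NS-I/R replicate 1 (adjusted p 0.0604 and 0.0527), with a minimum of 1000 genes (log2 −0.11) or with doublets kept. Arterial-like nuclei stood at 386, 358 and 446 in NS-Sham and 578, 655 and 433 with NS-I/R (log2 0.47, adjusted p = 0.0952), which did not pass with 9 libraries and passed without NS-I/R replicate 3 (log2 0.62, adjusted p = 0.00533), and the difference between the subtypes was not tested. Lymphatic endothelial-like nuclei, next in level in sham, gave 227, 307 and 321 CPM in NS-Sham and 147, 315 and 250 with NS-I/R and overlapped.

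**Figure D4:**
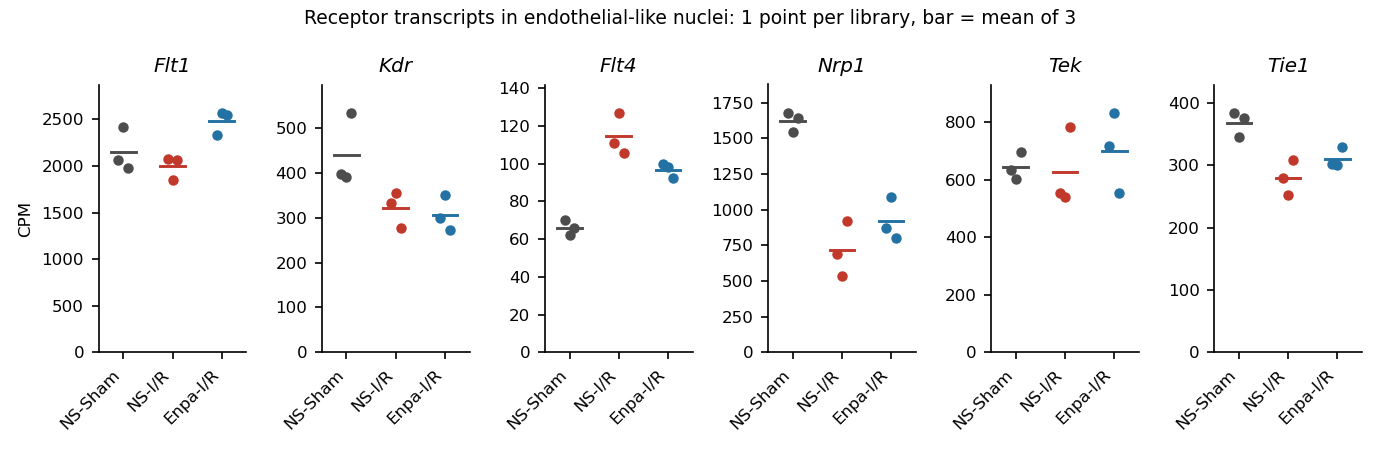
CPM of the 6 receptor genes (linear axes from 0) in endothelial-like nuclei of each library, by group; points are libraries and bars are group means. Endothelial-like Nrp1 stands at 1542 to 1676 CPM in NS-Sham and 538 to 923 with NS-I/R, while endothelial-like Flt1 and Tek overlap between these groups.

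Nrp1 fell in I/R in 6 of the 7 classes large enough to test (25 nuclei or more in each library). Cardiomyocyte-like nuclei, at 428, 464 and 464 CPM in NS-Sham and 257, 368 and 273 with NS-I/R, did not pass (log2 −0.61, adjusted p = 0.0818), but did with the 6 libraries of the contrast, no low-count filter, the replicate block or Enpa-I/R replicate 2 left out (adjusted p 0.0106 to 0.0273). Endothelial-like nuclei stood at 1676, 1542 and 1641 CPM in NS-Sham, 687, 538 and 923 with NS-I/R and 872, 1087 and 800 with Enpa-I/R. The I/R fall was 2.40-fold (log2 −1.26, SE 0.17, adjusted p = 0.000168) and no setting or left-out library ended the call. Enpatoran was not called with 9 libraries, and without NS-I/R replicate 3 Nrp1 was higher with it by 0.62 on the log2 scale (adjusted p = 0.00412). Thinned to 1000 UMIs, 64.8% ± 1.07 of endothelial-like nuclei held an Nrp1 UMI in NS-Sham and 37.4% ± 8.16 with NS-I/R (exact permutation p = 0.1, the smallest possible with 3 against 3; 76.4% and 48.1% unthinned), against 9.46% ± 5.64 of sham B lymphocyte-like nuclei.

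The Nrp1 fall was seen inside clusters. Capillary-like nuclei gave 2012, 1841 and 1964 CPM in NS-Sham and 1064, 748 and 1193 with NS-I/R (log2 −0.95, SE 0.17, adjusted p = 0.000785), and endothelial cluster 3, fitted apart after the data were seen, gave −1.24 (adjusted p = 0.00299). Arterial-like nuclei fell by 0.83 on the log2 scale (SE 0.18, adjusted p = 0.00463), and not at the finer Leiden resolution of 2 (adjusted p = 0.767). Endocardial-like nuclei overlapped, with 1193, 1002 and 1297 CPM in NS-Sham and 864, 847 and 1078 with NS-I/R. Outside endothelium, macrophage-like nuclei went from 739, 975 and 867 to 201, 192 and 543 CPM (log2 −1.52, SE 0.32, adjusted p = 0.00185; −2.17 without NS-I/R replicate 3). Within macrophage cluster 8 the values were 803, 1009 and 917 CPM in NS-Sham and 343, 309 and 1108 with NS-I/R, so replicate 3 lay above sham there, and cluster 14 gave 46.7, 69.1 and 183 with NS-I/R. The part of the shift between these clusters in the fall was not tested. Fibroblast-like nuclei went from 424, 433 and 422 to 244, 228 and 310 CPM (log2 −0.83, SE 0.17, adjusted p = 0.00315), and lymphatic endothelial-like nuclei fell by 1.75 on the log2 scale (adjusted p = 0.00463). Smooth muscle-like nuclei fell by 1.17 on the log2 scale (adjusted p = 0.0122), a call lost without NS-Sham replicate 1 (adjusted p = 0.0548) or NS-I/R replicate 2 (adjusted p = 0.0756). Pericyte-like nuclei gave 934, 752 and 700 CPM in NS-Sham and 631, 581 and 648 with NS-I/R (log2 −0.52, SE 0.17, adjusted p = 0.0410), a call lost without Enpa-I/R replicate 2 or any of replicates 1 and 2 of NS-I/R and NS-Sham (adjusted p 0.0538 to 0.178), or with a mitochondrial limit of 20%.

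Flt4, the lymphatic receptor, stood at 1130, 796 and 714 CPM in sham lymphatic endothelial-like nuclei, 928, 882 and 915 with NS-I/R and 952, 966 and 930 with Enpa-I/R, and no difference was called there. It was called higher in endothelial-like, endocardial-like and cardiomyocyte-like nuclei. Endothelial-like nuclei went from 70.2, 62.4 and 65.8 to 111, 127 and 105 CPM (log2 0.71, SE 0.12, adjusted p = 0.000564), and stood at 99.8, 98 and 92.6 with enpatoran. Endocardial-like nuclei rose from 32.8, 34.0 and 28.7 to 92.3, 110 and 90.0 CPM, the widest Flt4 change of an endothelial subtype named by markers (log2 1.51, SE 0.27, adjusted p = 0.00187). Cardiomyocyte-like nuclei went from 0.923, 1.07 and 0.753 to 3.02, 2.06 and 1.99 CPM (log2 1.31, SE 0.35, adjusted p = 0.0121), a call lost without NS-I/R replicate 1 (adjusted p = 0.0541), with a mitochondrial limit of 20% or with a minimum of 1000 genes. Pericyte-like (log2 0.99, adjusted p = 0.0650), fibroblast-like (log2 1.34, adjusted p = 0.0991), arterial-like (log2 0.42, adjusted p = 0.233) and capillary-like nuclei (log2 −0.10, adjusted p = 0.858) did not pass. The lymphatic values were the highest of these classes in all 3 groups.

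Tek, the angiopoietin receptor, was not called in endothelial-like nuclei, which gave 634, 601 and 696 CPM in NS-Sham, 554, 541 and 785 with NS-I/R and 717, 831 and 553 with Enpa-I/R. The I/R log2 fold change was −0.12, with a 95% interval of −0.45 to 0.20. Fibroblast-like nuclei carried 1.07 Tek UMIs each in NS-Sham and fell from 323, 264 and 323 to 202, 190 and 209 CPM (log2 −0.72, SE 0.12, adjusted p = 0.000909), which no alternative ended. Tie1, its co-receptor, fell in endothelial-like nuclei from 383, 345 and 375 to 279, 252 and 308 CPM (log2 −0.48, SE 0.11, adjusted p = 0.00441). It stood at 301, 300 and 328 with enpatoran, above NS-I/R in mean and not called. Fitted apart, capillary-like, arterial-like and endocardial-like nuclei gave no Tie1 call in I/R. The summed endothelial markers were 14034 to 14260 CPM in NS-Sham endothelial-like nuclei and 13740 to 15161 with NS-I/R, ranges that overlapped. The ranges of Kdr, Tie1 and Nrp1 did not overlap between these groups. Within the class, capillary cluster 2 went from 2721 to 463 nuclei and cluster 7 from 119 to 1597. The part of that shift in the receptor falls was not tested.

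**Figure D5:**
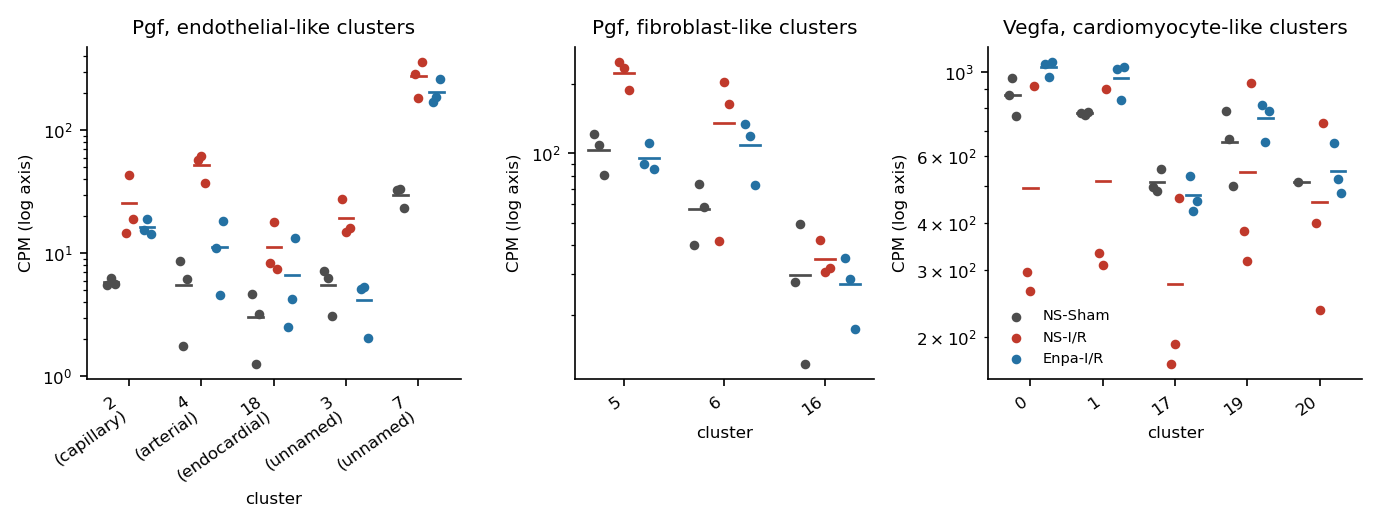
CPM (log axis) of Pgf in endothelial and fibroblast clusters and of Vegfa in cardiomyocyte clusters, by library and group; points are libraries and bars are group means, and cardiomyocyte cluster 20 has a single sham nucleus. Pgf in endothelial cluster 7 lies at 183 to 358 CPM with NS-I/R, and Vegfa with NS-I/R replicate 3 lies above the other 2 NS-I/R libraries in every cardiomyocyte cluster.

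Counted over the 10 genes, 6 of 10 tested were called in endothelial-like nuclei in I/R, 2 higher and 4 lower, where 34.3% of all genes tested were called. In cardiomyocyte-like nuclei 3 of 10 were called against 45.9% of all genes, in fibroblast-like nuclei 4 of 10 against 29% and in pericyte-like nuclei 3 of 10 against 23.4%. The smaller classes gave 4 of 9 in macrophage-like nuclei (34.5% of all genes), 3 of 9 in lymphatic endothelial-like nuclei (15.6%) and 4 of 7 in smooth muscle-like nuclei (9.35%). The endothelial subtypes gave 3 of 10 in arterial-like (13.6%), 3 of 10 in capillary-like (8.8%) and 2 of 8 in endocardial-like nuclei (11.1%). The members' median log2 fold change was −0.30 in endothelial-like, −0.20 in cardiomyocyte-like, −0.01 in fibroblast-like and −0.39 in pericyte-like nuclei. In lymphatic endothelial-like, smooth muscle-like and macrophage-like nuclei it was −0.44, −0.64 and 0.68. Arterial-like, capillary-like and endocardial-like nuclei gave 0.01, −0.07 and −0.09. The median of all genes lay between 0.01 and 0.03 in each of these. The pericyte count of 3 became 1 without NS-Sham replicate 2 or NS-I/R replicate 1 or 2, and 5 without NS-I/R replicate 3. Of these fits, the share of all genes called is given, below, only for the one without NS-I/R replicate 3.

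With enpatoran the counts were smaller. Endothelial-like nuclei gave 2 of 10 (Pgf lower, Angpt1 higher; 6.53% of all genes called), cardiomyocyte-like nuclei 2 of 10 (the same 2 genes and directions; 19.1%), fibroblast-like nuclei 1 of 10 (1.11%), macrophage-like nuclei 1 of 9 (6.08%) and arterial-like nuclei 1 of 10 (1.78%). With all 9 libraries, no member was called by edgeR in pericyte-like (4.94% of all genes), lymphatic endothelial-like (1.07%), smooth muscle-like (0%), capillary-like (0.329%) or endocardial-like nuclei (0.908%). At an unadjusted p under 0.05 those classes had 3, 3, 2, 1 and 1 members, and DESeq2 called 0 in each. In smooth muscle-like nuclei edgeR called 0 of all 6632 genes, 942 had an unadjusted p under 0.05, and DESeq2 called 65. The cardiomyocyte-like count with enpatoran was 0 with any 1 Enpa-I/R replicate left out and without NS-I/R replicate 1 or 2, and the fibroblast count was 0 without those or NS-Sham replicate 3. Shares of all genes called in these fits are not given here, so the lost calls cannot be set against them. Within single clusters of the 6 I/R libraries, fits added after the data were seen called only Pgf: in arterial-like cluster 4 (log2 −2.17, adjusted p = 0.0154) and in fibroblast cluster 5 (log2 −1.20, adjusted p = 0.0461). Of all genes, 0.906% were called in cluster 4 and 0.0460% in cluster 5. In cluster 7 edgeR called 0 of 9 and 0.207% of all genes.

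Leaving out NS-I/R replicate 3 ended no call of these genes in a class or subtype and added others, while the share of all genes called rose as well. The counts with enpatoran were then 6 in endothelial-like (29.1% of all genes), 5 in cardiomyocyte-like (44.6%), 4 in fibroblast-like (28.9%), 3 in pericyte-like (23.1%), 2 in macrophage-like (19.1%), 2 in smooth muscle-like (8.02%) and 1 in lymphatic endothelial-like nuclei (5.75%). The subtypes gave 2 in arterial-like (12.6%), 1 in capillary-like (4.17%) and 0 in endocardial-like nuclei (10.7%). The log2 differences that follow are each given first with 9 libraries, not called, and then without that library, called. In endothelial-like nuclei Vegfa (0.64, then 0.95), Nrp1 (0.41, then 0.62), Flt1 (0.35, then 0.38) and Tek (0.21, then 0.39) were higher with enpatoran. The summed cardiomyocyte markers, given with Angpt1, were higher in these nuclei too, and their part in the Vegfa difference was not tested. Cardiomyocyte-like nuclei added Vegfa (0.75, then 1.33), Flt1 (0.69, then 0.81) and Angpt2 (0.53, then 0.92), and fibroblast-like nuclei added Angpt1 (0.75, then 1.33), Nrp1 (0.34, then 0.49) and Vegfa (0.30, then 0.65). In pericyte-like nuclei Angpt1 was higher (1.14, then 1.96) and Flt4 (−0.78, then −1.09) and Pgf (−0.96, then −0.93) were lower. Nrp1 in macrophage-like nuclei went from 1.02 to 1.68, Tek in lymphatic endothelial-like nuclei from 0.83 to 0.96, Flt1 and Vegfa in smooth muscle-like nuclei from 0.69 to 1.28 and from 1.09 to 1.67, Vegfa in arterial-like nuclei from 0.81 to 1.17 and Flt1 in capillary-like nuclei from 0.39 to 0.55.

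The I/R counts without NS-I/R replicate 3 were 7 in endothelial-like (45.5% of all genes), 4 in cardiomyocyte-like (57.1%), 5 in fibroblast-like (44.2%), 5 in pericyte-like (33.7%), 5 in arterial-like (22.5%) and 8 of 9 in smooth muscle-like nuclei (15.6%), and the counts of the other classes and subtypes were as with 9 libraries. Vegfa was added as lower in endothelial-like (−0.40, then −0.72), cardiomyocyte-like (−0.66, then −1.24), pericyte-like (−0.38, then −0.91) and arterial-like nuclei (−0.47, then −0.82). In endothelial-like nuclei the summed cardiomyocyte markers were also lower with NS-I/R, and their part was not tested. Kdr was added as lower in fibroblast-like nuclei (−0.77, then −1.07) and higher in arterial-like nuclei, and Flt4 as higher in pericyte-like nuclei (0.99, then 1.3). Smooth muscle-like nuclei added Flt1 (−0.64, then −1.23) and Pgf (1.46, then 1.69), and also Kdr (−2.64) and Tie1 (−3.52), which were too low to be tested with 9 libraries. The 11 endothelial markers summed to 1347 to 1905 CPM in smooth muscle-like nuclei of NS-Sham and 639 to 2204 with NS-I/R, none at 0, and their part was not tested. Falls already called grew without that library for Angpt1 in fibroblast-like (−2.35, then −2.94) and pericyte-like nuclei (−1.89, then −2.71). Other libraries moved called values too: Pgf in I/R was 3.29 in macrophage-like and 3.88 in arterial-like nuclei without NS-Sham replicate 1, and Angpt1 was −2.74 in arterial-like nuclei without NS-Sham replicate 2 and −2.61 in smooth muscle-like nuclei without NS-I/R replicate 2.

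Counting unnamed cluster 24 as fibroblast-like, an alternative added after the data were seen, changed the fibroblast-like values. In I/R 6 of 10 genes were then called (46.8% of all genes), with Vegfa higher (log2 1.28, adjusted p = 0.00681) and Kdr lower (log2 −0.74, adjusted p = 0.0317) as additions. Angpt1 stood at −3.13, Nrp1 at −1.34, Tek at −1.25 and Pgf at 1.52. With enpatoran 3 were called (9.36% of all genes): Pgf at −1.42, Angpt1 at 1.03 and Nrp1 at 0.61.

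The I/R effect was also tested between classes, as the difference of 2 log2 fold changes. Between cardiomyocyte-like and fibroblast-like nuclei it differed for 3 of 10 genes, where 16.6% of all genes differed: Vegfa by −0.80 (SE 0.19, adjusted p = 0.00812), Pgf by 1.4 (SE 0.34, adjusted p = 0.0105) and Tek by 0.67 (SE 0.19, adjusted p = 0.0252). Without NS-Sham replicate 2 that count was 1 and without NS-I/R replicate 3 it was 5, and the shares of all genes that differed in these fits are not given here. Between endothelial-like and pericyte-like nuclei 1 of 10 differed against 4.9% of all genes, Nrp1 by −0.83 (SE 0.18, adjusted p = 0.00722), and it was not called without NS-Sham replicate 2 or NS-I/R replicate 1 or 2 (adjusted p 0.0577 to 0.117). Between cardiomyocyte-like and pericyte-like nuclei edgeR called 0 of 10, with 9.88% of all genes called and 0 members at an unadjusted p under 0.05; no other tool was run.

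Thinned shares of endothelial-like nuclei followed the receptor levels. Kdr was found in 31.2% ± 4.21 of NS-Sham and 24.4% ± 1.94 of NS-I/R nuclei (45.5% and 35.6% unthinned), and Tie1 in 30.2% ± 2.13 and 23.1% ± 1.63 (48.2% and 37.9% unthinned). Macrophage-like nuclei, which should lack both, gave 1.18% ± 0.612 and 1.11% ± 0.904 in NS-Sham. For both genes the exact two-sided permutation p was 0.1 and 0.175 after Benjamini-Hochberg adjustment over 14 comparisons, and 0.1 is the smallest p that 3 against 3 allows. Flt1 was found in 76.0% ± 3.25, 71.5% ± 2.5 and 79.5% ± 2.29 of nuclei in the 3 groups.

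Of 37 other genes of the pathway listed, 36 were in the files, covering further ligands, further receptors, hypoxia factors and targets, and endothelial signalling and response genes. In endothelial-like nuclei 34 were tested, with 14 higher and 10 lower in I/R, where 34.3% of all genes tested were called. Among the signalling genes 4 of 11 were higher and 4 lower: Dusp5, a MAP kinase phosphatase, rose from 2.30 ± 0.955 to 30 ± 4.07 CPM (log2 3.48, adjusted p = 3.31e-06), and Aplnr, the apelin receptor, fell from 44.3 ± 4.63 to 7.74 ± 2.04 CPM (log2 −2.59, adjusted p = 1.19e-05). Among other receptors 3 of 7 were higher and 2 lower, with the integrin subunit Itgb3 rising from 8.71 ± 1.83 to 96.1 ± 6.48 CPM (log2 3.33) and the semaphorin receptor Plxnd1 falling from 328 ± 13.9 to 146 ± 65.9 CPM (log2 −1.25). Hypoxia genes gave 5 of 10 higher and 1 lower, led by the glucose transporter Slc2a1 at 3.46 ± 1.22 and 23.6 ± 3.42 CPM (log2 2.58). Vegfd, a ligand of the Flt4 receptor, fell from 43.6 ± 12.3 to 15.6 ± 7.61 CPM and stood at 34.3 ± 7.23 with enpatoran (log2 1.19, adjusted p = 0.0398). Enpatoran gave 1 gene higher and 5 lower, where 6.53% of all genes were called. Among the lower genes were Adm, the adrenomedullin peptide (log2 −1.84, adjusted p = 0.00801), and Sema3a, a semaphorin that binds the Nrp1 co-receptor (log2 −1.46, adjusted p = 0.0109).

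In cardiomyocyte-like nuclei 30 pathway genes were tested, 11 higher and 6 lower in I/R, where 45.9% of all genes were called. Slc2a1 rose from 4.74 ± 0.560 to 18.8 ± 7.39 CPM (log2 1.97), while Bnip3, a mitophagy receptor induced by hypoxia, fell from 94.9 ± 53.7 to 37.3 ± 19.3 CPM (log2 −1.35, adjusted p = 0.0229) and Epas1, which encodes the hypoxia factor HIF-2 alpha, fell by 0.84 on the log2 scale. Fibroblast-like nuclei gave 7 higher and 3 lower of 29 (29% of all genes called): Hif1a went from 47.9 ± 9.11 to 123 ± 32.8 CPM (log2 1.22, adjusted p = 0.00097), and Vegfc, a lymphatic growth factor, from 173 ± 30.4 to 97.5 ± 23.2 CPM (log2 −0.95, adjusted p = 0.00372). Pericyte-like nuclei gave 5 higher and 2 lower of 22 (23.4% of all genes called), with Vegfc at 53.1 ± 8.42 and 22.9 ± 13.2 CPM (log2 −1.35, adjusted p = 0.00746). With enpatoran the counts were 1 higher and 4 lower in cardiomyocyte-like (19.1% of all genes called), and 0 higher and 3 lower in pericyte-like nuclei (4.94%). In pericyte-like nuclei Hif1a stood at 190 ± 69.5 with NS-I/R and 90.0 ± 11.5 CPM with Enpa-I/R (log2 −0.97, adjusted p = 0.0219). In fibroblast-like nuclei edgeR called 0 of 29 (1.11% of all genes), DESeq2 called 0, and 9 had an unadjusted p under 0.05.

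Over 63 class-by-library sums from 7 classes, the genes whose levels were most like Kdr's were Tie1 (Pearson r = 0.972), Emcn (0.971) and Egfl7 (0.968), of 11417 compared, and those most like Vegfa's were Rbm20 (0.908), Fhod3 (0.905) and Lrrc2 (0.904). Points from 1 library share its depth and the classes differ widely in all their genes, so the r values are descriptions. Emcn, Egfl7 and Rbm20 were themselves class markers.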

How the data were processed

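Nuclear RNA of 9 libraries was made with the Chromium v3.1 kit, per the labels. The authors deposited raw UMI counts, 1 gene by barcode matrix per library. The file headers name Cell Ranger 8.0.0, whereas the submitters' processing notes name Cell Ranger 6.1.1 and Seurat, with the builds GRCh38 and GRCm39. Whether introns were counted is not given in the sources used here.

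Nuclei with at least 500 genes and at most 5% mitochondrial UMIs were kept, and the highest Scrublet scores, 0.8% per 1000 barcodes, were removed as doublets. Clustering (scanpy 1.11.5; 2000 variable genes, 30 components, 15 neighbours, Leiden resolution 1) left out the 10 genes. To be named, a cluster had to show at least 3 markers of a type and lead the next type by 0.5 (mean log2). It stayed unnamed if its 10 leading genes held more markers of another type than of its own. Members, marker sets and gene lists were chosen with earlier results of these data known. UMI counts of each class, summed within libraries, were tested with edgeR 4.0.16 (R 4.3.3; filterByExpr, TMM, quasi-likelihood, 1 fit of 9 libraries per class, threshold 0.05); a class was tested if each library held at least 25 of its nuclei. Named genes were the 10 members and, of the pathway lists, up to 3 of the called genes with the largest rises and falls per class and contrast among those with a mean of at least 10 CPM, of which some are printed. Differences between classes used an interaction in 1 fit, with library as a block because both classes came from the same libraries. For shares of nuclei with a UMI, 1000 UMIs were drawn from every nucleus that had as many, and the shares were compared with exact permutation tests over libraries. CPM and UMIs per nucleus in the text are unscaled. Tested on simulated data in which 200 genes had a true log2 fold change of 1, the NS-I/R minus NS-Sham step recovered 77.0% in endothelial-like and 31.5% in smooth muscle-like nuclei. Nothing in the labels says that replicates are separate animals, so p-values measure the spread between these libraries. Alternatives were DESeq2 size factors, the Wald test of DESeq2 1.42.0, no low-count filter, a replicate block, fits with only 6 libraries, leaving out each library, other filters on nuclei, doublets kept and Leiden resolution 2. For shares of UMIs by class, classes were also weighted by CPM. Counting cluster 24 as fibroblast-like and fits within clusters were added after the data were seen.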

Additional observations from a re-analysis of the deposited data

Results flagged for a closer look

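4 I/R effects differed between classes by the interaction test of edgeR. Between cardiomyocyte-like and fibroblast-like nuclei, Tek differed by 0.67, Pgf by 1.4 and Vegfa by −0.80 on the log2 scale, and between endothelial-like and pericyte-like nuclei Nrp1 differed by −0.83. For Tek, fibroblast-like nuclei fell from 303 ± 34.2 to 200 ± 9.35 CPM while the cardiomyocyte-like log2 fold change was −0.01, and the call was lost without NS-Sham replicate 2 or 3 or NS-I/R replicate 1 or 2 (adjusted p 0.0671 to 0.127). For Pgf, it was lost without NS-Sham replicate 2 (log2 1.08, adjusted p = 0.129). The Vegfa difference was called with each library left out in turn and was not called with the replicate block (log2 −0.71, adjusted p = 0.309). In this interaction test the replicate block took the place of the library block. That fit therefore left out the pairing of classes from the same library. It also gave no call for Tek (adjusted p = 0.131) and Nrp1 (adjusted p = 0.151).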

How the results depend on the processing

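Counts of called members moved as follows. With no low-count filter, they were 5 in endothelial-like, 2 in fibroblast-like and 1 in pericyte-like nuclei with enpatoran, 5 in cardiomyocyte-like nuclei in I/R and 19, against 12, in the lymphatic endothelial-like, smooth muscle-like and macrophage-like nuclei together over both contrasts. With the 6 libraries of the contrast, the enpatoran counts were 0 in cardiomyocyte-like and 0 in fibroblast-like nuclei. With a mitochondrial limit of 20% they were 0 in cardiomyocyte-like and 3 in fibroblast-like nuclei, and with doublets kept 1 in cardiomyocyte-like nuclei. A minimum of 1000 genes gave 3 in fibroblast-like and 1 in pericyte-like nuclei, Leiden resolution 2 gave 3 in fibroblast-like nuclei, and counting cluster 24 as fibroblast-like gave 3 with enpatoran. The cause of these moves was not tested. Among these settings, the share of all genes called is given only for the fit with cluster 24.

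With each library left out, enpatoran counts ran from 2 to 6 in endothelial-like, 0 to 5 in cardiomyocyte-like, 0 to 4 in fibroblast-like and 0 to 3 in pericyte-like nuclei, and I/R counts from 1 to 5 in pericyte-like nuclei. The highest enpatoran counts came without NS-I/R replicate 3. In that fit 29.1%, 44.6%, 28.9% and 23.1% of all genes were called in these classes, against 6.53%, 19.1%, 1.11% and 4.94% with 9 libraries. The 3 other classes together, over both contrasts, ran from 9 to 20. Differences of the I/R effect ran from 1 to 5 (cardiomyocyte-like against fibroblast-like) and 0 to 1 (endothelial-like against pericyte-like). For these differences and for the other left-out libraries, the share of all genes called is not given. The log2 fold change of Tie1 in pericyte-like nuclei, not called, ran from −0.81 to 0.12. The enpatoran difference in endothelial-like nuclei with a UMI ran from −0.871 to 2.09 percentage points for Kdr and from −0.762 to 0.191 for Angpt2. Called I/R values also moved by over 1.5 times with other filters on nuclei: Angpt1 to between −3.00 and −3.17 in fibroblast-like nuclei (also at Leiden resolution 2) and to −3.01 and −2.71 in pericyte-like nuclei, Pgf to 3.05 and 3.34 in macrophage-like and to 3.00 and 3.06 in capillary-like nuclei, and Flt1 to 0.57 in macrophage-like nuclei with doublets kept. Of the log2 fold changes under other settings, 565 stayed on the same side of the threshold in the same direction, 30 newly passed and 23 no longer passed. Shares of a ligand's UMIs held by a class were also taken with other filters on nuclei and with classes weighted by CPM. Of these shares, 24 moved by at least their SD over libraries and 39 did not.

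The same replicate numbers correlated between −0.20 and 0.18. This does not settle whether the numbers pair the libraries. NS-Sham and NS-I/R libraries of the same number ran from −0.035 to 0.178, and those of different numbers from −0.150 to 0.081. With the replicate block, 1 member was called in cardiomyocyte-like nuclei with enpatoran, and the differences of the I/R effect were 1 (cardiomyocyte-like against fibroblast-like) and 0 (endothelial-like against pericyte-like). For these differences it replaced the library block and left out the pairing of the classes. Shares of all genes called with the replicate block are not given. Capillary-like nuclei could not be named under some filters, which gave no value. Classes with few nuclei, such as smooth muscle-like, limit what these counts can show.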
